A study of Mus musculus with 2 samples.

Results

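Binding of the corepressor Tle3 was examined at 3 genes of progenitor growth, Myc, E2f2 and Kit, in bone marrow progenitors. A window of mouse build mm9 was set for each gene, and a called region of Tle3 enrichment (a peak) was a member if its midpoint lay in a window. This gave 7 of the 5136 peaks in the list: 2 in the Myc window, 4 in the E2f2 window and 1 in the Kit window. The Myc window runs over 2100 kb (chr15:61700000-63800000), to take in the blood enhancer region downstream of the gene. The E2f2 window covers 80 kb (chr4:135700000-135780000) and the Kit window 330 kb (chr5:75820000-76150000). The genes were chosen with peaks of this list known, so counts, scores and densities in the windows are descriptions and carry no test.

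The cells were purified from the bone marrow of C57BL/6 mice of wild-type genotype, 8 to 10 weeks old, as cells negative for lineage markers and positive for cKit. Both libraries came from that one kind of cell, with no treatment or second genotype. One library was made by chromatin immunoprecipitation and sequencing (ChIP-seq) with an antibody against Tle3. The other was the control, for which the title and the antibody field say normal IgG while the source name and description say input. The source names speak of T cells and the cell type field of hematopoietic progenitors, and a list of peaks does not allow a check of the cell type by its markers. The cells were selected on the protein that Kit encodes. No comparison could be checked by replicates, since each antibody had 1 library, and the depth of both is unknown. Each peak has the score the authors deposited, which in MACS, the peak caller named in the submitters' processing notes, is minus 10 times the log10 of the p-value against the local background. Scores in the list start at 50 and have a median of 68.82.

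Tle3 belongs to the Groucho family. These proteins do not bind DNA themselves and are held on chromatin by partners, among them proteins of the RUNX, HES and TCF/LEF families, where they lower transcription. Kit is the receptor for stem cell factor, a tyrosine kinase that keeps blood stem and progenitor cells alive and dividing. Myc encodes a basic helix-loop-helix factor that drives growth and division, and in blood its expression depends on a cluster of enhancers far downstream of the gene. E2f2 encodes one of the activating E2F factors, which are held in check by the retinoblastoma protein and turn on genes of DNA replication as cells enter S phase.

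The promoter sequences of E2f2 are shown first, because the E2f2 window held the highest scoring peak and the most closely spaced peaks of the 3 genes. They come from RefSeq on build GRCm38.p6 and run from 250 bases before an annotated start to 50 bases after it. Positions on that build cannot be set against the mm9 positions of the peaks. The table matched 2 of the 3 genes, E2f2 and Kit. Myc had no entry. Capitals mark matches to the letters CCAAT, the CCAAT box, and TTTGGCGC, a form of the E2F site.
E2f2 first start, chr4:136172024-136172323, GRCm38.p6, plus strand: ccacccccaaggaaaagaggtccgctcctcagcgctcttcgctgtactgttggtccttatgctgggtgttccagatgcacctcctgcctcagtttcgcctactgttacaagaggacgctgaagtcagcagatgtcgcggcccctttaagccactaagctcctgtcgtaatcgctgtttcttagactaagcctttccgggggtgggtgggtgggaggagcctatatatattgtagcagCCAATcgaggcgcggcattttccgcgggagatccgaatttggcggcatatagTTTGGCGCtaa
E2f2 second start, chr4:136180532-136180831, GRCm38.p6, plus strand: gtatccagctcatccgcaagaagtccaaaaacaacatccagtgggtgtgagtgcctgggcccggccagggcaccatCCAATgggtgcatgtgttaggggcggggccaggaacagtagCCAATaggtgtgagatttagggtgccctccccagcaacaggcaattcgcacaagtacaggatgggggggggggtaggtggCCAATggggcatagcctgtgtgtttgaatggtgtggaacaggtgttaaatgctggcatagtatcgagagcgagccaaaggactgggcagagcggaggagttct

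Both strands were searched for 8 strings of letters. The first E2f2 promoter held TTTGGCGC from base 40 after the start, counting the start as base 1, and 0.514% of the 32851 promoters in the table hold these letters on either strand. It also held 1 CCAAT, whose first base lies 13 bases before the start. The second E2f2 start lies 8508 bases downstream of the first. Its promoter held 3 matches to CCAAT, with first bases 174, 133 and 53 bases before that start, and none to the E2F letters. CCAAT is common, with a match in 37.4% of all promoters. The matches in each promoter did not overlap. The letters of factors that carry Groucho proteins had no match in either E2f2 promoter: TGTGGT for RUNX, found in 16.8% of promoters, CTTTGA for TCF/LEF, in 16.0%, and the E-box CACGTG of HES and MYC proteins, in 7.15%. There was no match either to AGATAA for GATA factors (11.2% of promoters), TTTCCCGC, the other E2F form (1.07%), or CCGGAAGT for ETS factors (3.89%). The Kit promoter is annotated from starts 4 bases apart, and both entries held none of the 8 strings. Kit was the most GC-rich, at 69.0% G and C, against 54.7% and 56.7% for the E2f2 entries and a median of 52.7% over all promoters. A match is a description of letters and not a bound site, and no match says only that the letters are not in this window.

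The distance of each peak from its gene's start was not analysed here, because the gene tables used are on another build than the peaks. Positions are therefore given within the windows and from peak to peak, and upstream means toward lower coordinates. In the GRCm38.p6 gene order, Myc lies between the coding genes A1bg and Gsdmc, with the long non-coding RNA gene Pvt1 directly after it. E2f2 lies between Id3, which encodes an inhibitor of helix-loop-helix factors, and Asap3, and Kit lies between the receptor tyrosine kinase genes Pdgfra and Kdr.

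Scores and spacing differed widely among the 7 peaks. The E2f2 window held 4 peaks packed into 7.79 kb, with the strongest at 342.5. The Myc window held 2 peaks 1.66 Mb apart, and the Kit window held 1 peak near its downstream edge. Of the 7 peaks, 4 scored at least 100 (57.1%, 95% exact interval 18.4 to 90.1%, counting error only), against 24.5% of all peaks. Another peak lay within 10 kb of 4 of the 7, all in the E2f2 window, against 22.2% of all peaks. Of the 7, 2 were wider than 1000 bp, both at E2f2 (28.6%, 3.67 to 71.0%), against 11.1% of all peaks. The intervals count the 7 peaks as independent, although 4 of them are close neighbours in the E2f2 window. Nothing is read from these shares, since the peaks were known when the genes were chosen. The median score of the 7 was 101 and their median width 681 bp, against 68.82 and 657 bp in the whole list.

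**Figure D1:**
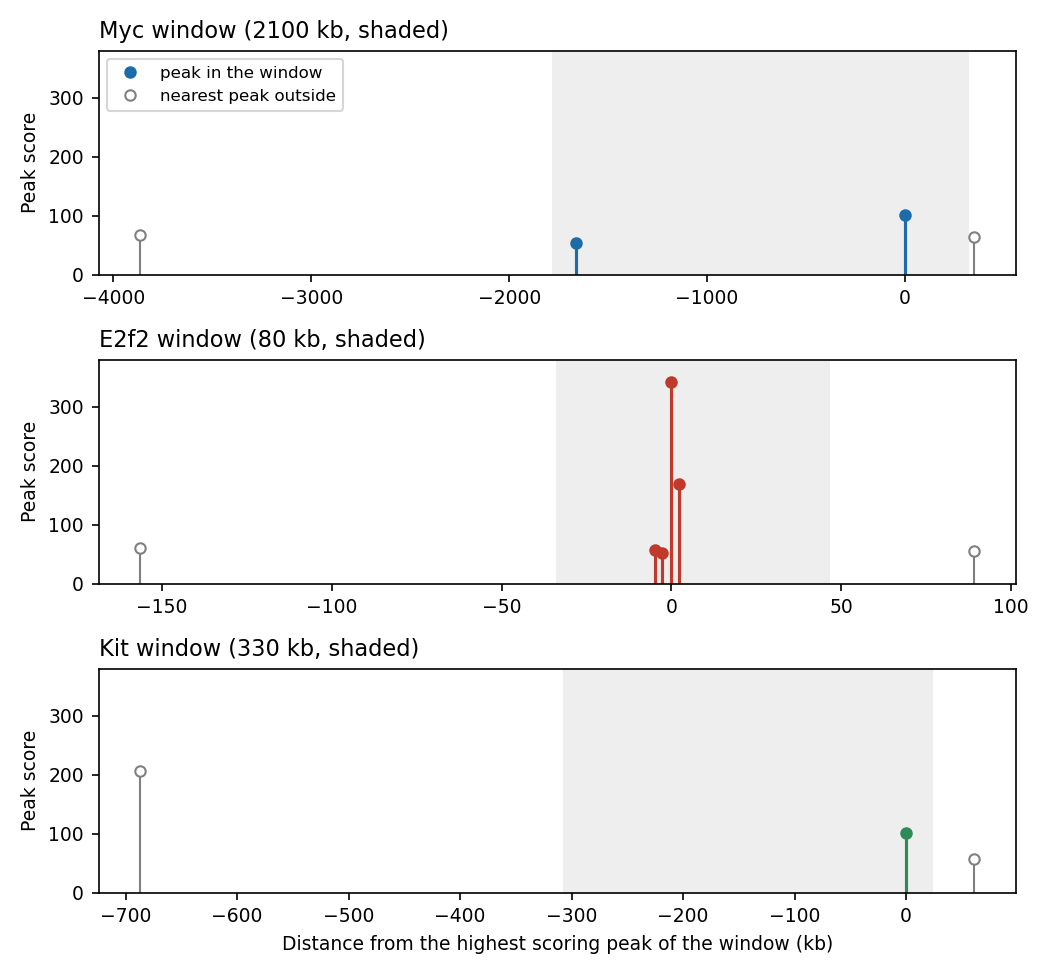
Score of each Tle3 peak (vertical axis) against its distance in kb from the highest scoring peak of its window (horizontal axis, a different scale in each panel). Filled points are the 7 peaks in the windows, open points the nearest peak outside on either side, and the grey band is the window. The 4 E2f2 peaks stand together with a top score of 342.5, while the Myc and Kit peaks stand alone.

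At E2f2 the peaks formed a chain, in which each peak lies within 10 kb of the next. The first peak, chr4:135728614-135729111, was 498 bp wide and scored 56.7. The second, chr4:135730543-135731223, was 681 bp wide and scored 52.48, the lowest score of the 7. The third, chr4:135733140-135734269, was 1130 bp wide and scored 342.5. The fourth, chr4:135735275-135736403, was 1129 bp wide and scored 169.56. The pair on the upstream side was lower in score and narrower than that on the downstream side. The third peak scored 2.02 times the fourth, 6.04 times the first and 6.53 times the second. The score is a log-scaled p-value that rises with depth, so these ratios are of scores and not of the amount of Tle3.

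The downstream pair, the strong pair of the chain, held most of the called length. It covered 2259 bp of the 3438 bp called, or 65.7%. The gaps between the 4 peaks were 1431, 1916 and 1005 bp, so all of them were shorter than 2 kb and longer than 1 kb. The centres of the strong pair lay 2.13 kb apart, and the centre of the third peak lay 4.84 kb from that of the first. Merging peaks within 1 kb left 4 peaks, and merging those within 2 kb, a setting added after the data were seen, left 1. Whether the 4 calls are separate sites or 1 broad region divided by the caller was not tested.

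**Figure D2:**
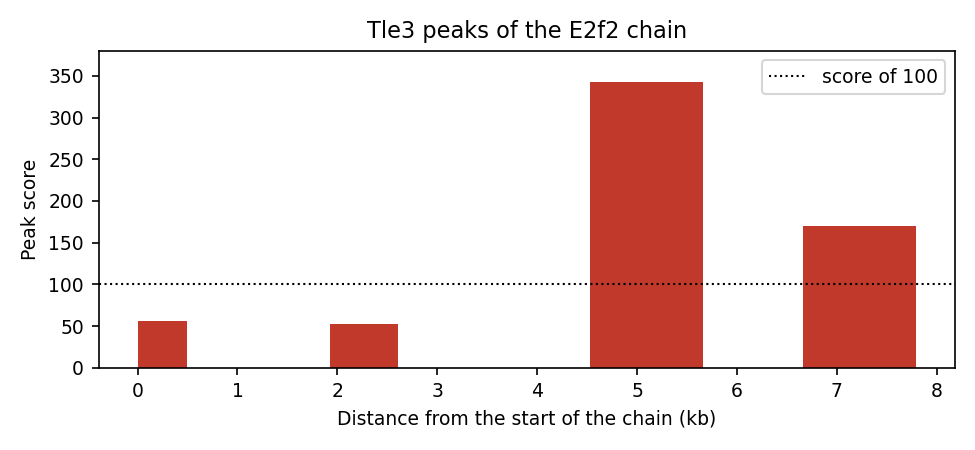
The E2f2 chain, with each bar spanning the width of 1 peak (horizontal axis, kb from the start of the chain) and reaching its score (vertical axis, from 0). The first and second peak lie under the dotted line at a score of 100, and the third and the fourth, at 342.5 and 169.56, lie above it.

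Within the list the third E2f2 peak ranked 38th of 5136 by score, above 99.3% of the peaks, and second of the 351 peaks on chromosome 4. The fourth ranked 350th in the list and 28th on the chromosome. The first and second scored higher than 24.9% and 10.2% of all peaks, and lay below the chromosome's median of 65.03. The same chain therefore joined a peak near the top of the list with a pair from its lower part.

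The list held 20 chains of at least 4 peaks, of which 18 had 4 and 2 had 5, and 1.60% of all peaks lay in one. Among these 20, the E2f2 chain had the second highest top score and the second highest second score. A chain on chromosome 14 exceeded it on both, with 403 and 362. The median over the 20 chains was 122 for the top score and 83.96 for the second. The E2f2 chain was the second shortest, at 7.79 kb against a median of 16.6 kb. Its peaks covered 44.1% of its length, the largest share of the 20, where the median was 19.9%. Its highest score was 6.53 times its lowest, also the largest such ratio of the 20. With the 80 chains of 3 added, its top score had rank 3 of 100, its second score rank 6 and its ratio rank 2. Its covered share then had rank 18 and its length rank 41 from the shortest. The score of this chain was known when E2f2 was chosen, so these ranks describe it and no test was made.

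**Figure D3:**
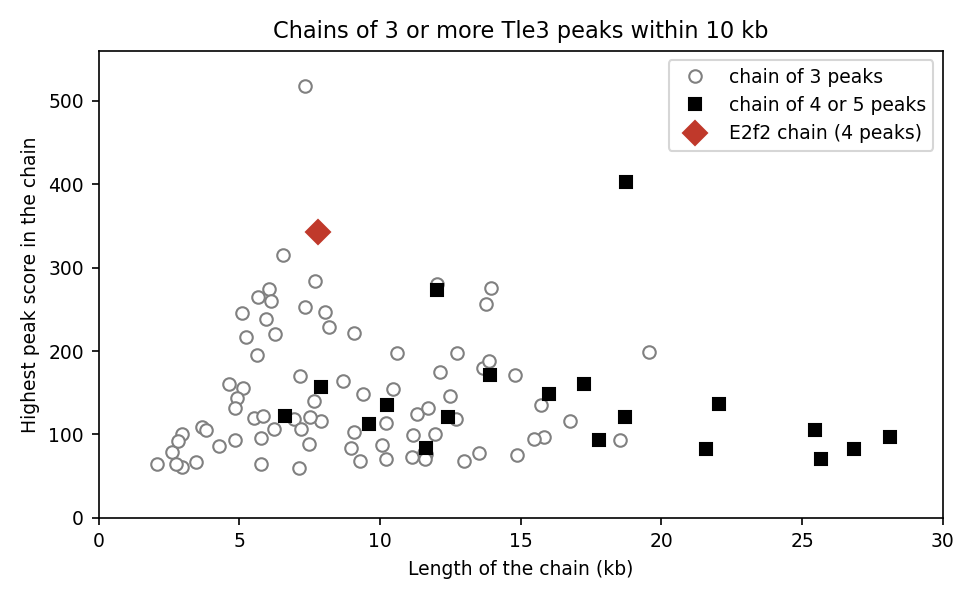
Highest peak score (vertical axis) against length in kb (horizontal axis) for the 100 chains of at least 3 peaks within 10 kb of each other. The E2f2 chain (diamond) combines a top score of 342.5 with a length of 7.79 kb, and 1 of the other 19 chains of 4 or 5 peaks (squares) has a higher top score.

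In density, the E2f2 window had 50 peaks per Mb (95% exact Poisson interval 13.6 to 128, counting error only), against 2.31 on chromosome 4 between its first and last peak. The ratio was 21.7 (5.90 to 55.4). Both intervals count the 4 neighbouring calls as separate and E2f2 was chosen with the chain known, so they carry no test. With peaks within 2 kb merged, a setting added after the data were seen, the ratio was 5.72. At the density of the chromosome, a window of this width would hold 0.185 peaks. Peaks covered 4.30% of the window and 0.160% of the chromosome. Along chromosome 4, 7 of 1899 tiles of 80 kb, the window among them, held at least 4 peaks (0.369%), and the fullest held 5. No peak fell in 1637 of these tiles, or 86.2%. The chain took up 7.79 kb of the 80 kb window, and the rest of the window held no peak.

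The stretch round E2f2 was also rich in peaks beyond the chain. The 5 Mb centred on the window held 48 peaks, or 9.60 per Mb, 4.16 times the chromosome. Against these 5 Mb, which include it, the window was 5.21 times as dense. Leaving the window out, 44 peaks remained at 8.94 per Mb, 3.87 times the chromosome. Of 29 tiles of 5 Mb on chromosome 4, only the one centred on the window (3.45%) held as many, and the median tile held 7. The median score in those 5 Mb was 75.98, against 65.03 on the chromosome, and 14 of the 48 scored at least 100. Closer in, the 500 kb centred on the window held 6 peaks, the chain among them, which is 5.20 times the chromosome. The nearest peak to the chain on the upstream side was 150.85 kb away (chr4:135577011-135577762, score 61.38). On the downstream side it was 86.1 kb away (chr4:135822531-135823024, score 54.87). Both lay outside the window and both scored under the median of the list.

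At Myc the peaks were few and far apart. The first, chr15:61815697-61816281, was 585 bp wide and scored 54.9, and lay 116 kb from the upstream edge of the window. The second, chr15:63479563-63480104, was 542 bp wide and scored 101.92, and lay 1780 kb from that edge and 320 kb from the downstream one. One peak thus lay near the upstream end of the window and the other toward its downstream end, the side to which it was extended for the enhancers. Whether they fall on the Myc promoter or on a known blood enhancer was not analysed here. The downstream peak had the higher score, above 76.3% of all peaks, where the first was above 19.5%. On chromosome 15 they ranked 65th and 206th of 243. Both were narrower than the chromosome's median of 677 bp.

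The 1.66 Mb between the Myc peaks held no other peak. This interval was the 15th longest of 242 on chromosome 15 (6.20% were as long or longer), where the median was 80.1 kb. Over the whole list 7.39% of intervals between neighbouring peaks were as long. Upstream of the first Myc peak came another 2199.3 kb without a peak, so that this weak call stood between a pair of long empty stretches, and 1.66% of all peaks were as isolated. The nearest peak to the downstream one lay 349 kb downstream, just outside the window (chr15:63829213-63829861, score 64.34), 29.2 kb past its edge. Sequence that reads cannot be placed on was not examined.

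The Myc window had 0.952 peaks per Mb (0.115 to 3.44), against 2.43 on chromosome 15, a ratio of 0.392 (0.0475 to 1.42). The interval covers counting error only and is wide, with 2 peaks behind it. Compared with single stretches of the chromosome the count was ordinary. Of 46 tiles of 2100 kb, 27 held at least 2 peaks (58.7%) and 25 held at most 2 (54.3%), and the median tile held 2. Counts were uneven along the chromosome, with 10 empty tiles and up to 21 peaks in a tile. The median tile therefore held fewer peaks than the 5.10 that the chromosome's density gives for this width. The 5 Mb centred on the window held 5 peaks, also the median of 19 such tiles, of which 10 (52.6%) held at most 5.

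At Kit a single peak was called. It lay at chr5:76126662-76127394, was 733 bp wide and scored 101.22, above 76.1% of all peaks and 78th of 381 on chromosome 5. It stood 307 kb from the upstream edge of the window and 23.0 kb from the downstream one. The rest of the window, from its upstream edge to this peak, held no call. Kit encodes the surface protein by which the cells were selected, and whether the peak lies within the gene or beyond it was not analysed here.

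The next peak downstream of the Kit peak was 60.3 kb away, outside the window (chr5:76187647-76188253, score 57.53). Upstream the nearest was 685.8 kb away (chr5:75439789-75440859), 1071 bp wide with a score of 206.69 and so stronger than the peak in the window. The Kit peak was not part of a chain, and its distance to the next peak was close to the median of 50.8 kb in the list.

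The Kit window had 3.03 peaks per Mb (0.0767 to 16.9) against 2.56 on chromosome 5, a ratio of 1.19 (0.0300 to 6.61). The interval is wide because it rests on 1 peak. Of 451 tiles of 330 kb, 161 held at least 1 peak (35.7%) and 290 held none. The fullest held 10. In the 5 Mb centred on the window there were 6 peaks, or 1.20 per Mb, 0.470 times the chromosome. Of 29 tiles of that size 12 held at most 6 peaks (41.4%), and the median was 9.

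**Figure D4:**
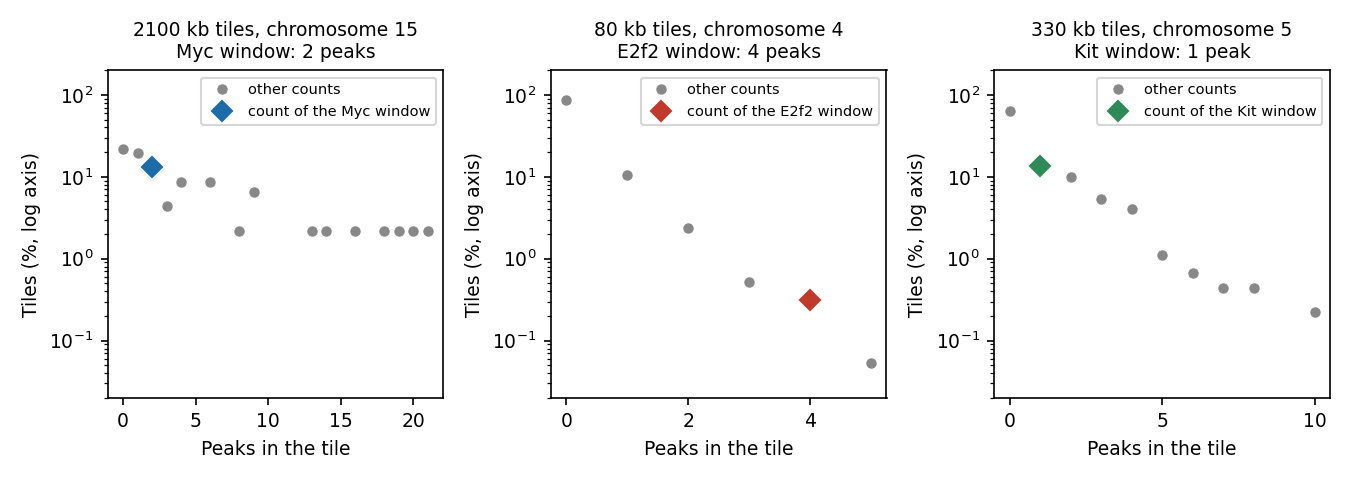
Share of tiles (vertical axis, percent, log axis) by number of peaks in the tile (horizontal axis), for tiles as wide as each window along its own chromosome. Diamonds mark the count of the window, which is 2 for Myc, 4 for E2f2 and 1 for Kit. The E2f2 count lies near the far end of its distribution and those of Myc and Kit do not. E2f2 was chosen with its chain known and the tiles were laid from each window, so this is a description.

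Because the windows differ in width, the 3 genes were also compared in stretches of equal width. In 100 kb round the window centres, there were 4 peaks at E2f2 and 0 at Myc and Kit. In 1 Mb the counts were 14 at E2f2, 0 at Myc and 2 at Kit, and in 2 Mb they were 18, 2 and 3. In 5 Mb they were 48, 5 and 6. E2f2 had the most peaks at each of these widths. The centre of the Myc window is not at the gene, since the window was extended downstream. Centred instead on the strongest peak of each window, 100 kb held 4 peaks at E2f2 and 1 each at Myc and Kit, which is 17.3, 4.12 and 3.91 times the chromosome. Around the same peaks, 1 Mb held 15 peaks at E2f2, 3 at Myc and 2 at Kit, and the Myc density was 1.24 times the chromosome. A stretch centred on a peak holds at least that peak, so these short stretches cannot be empty. The downstream Myc peak and the Kit peak were near each other in score, at 101.92 and 101.22, and both lie close to the score of 100 used as a threshold above. At a minimum of 110, added after the data were seen, 2 of the 7 peaks remained, both at E2f2, and 20.1% of all peaks.

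**Figure D5:**
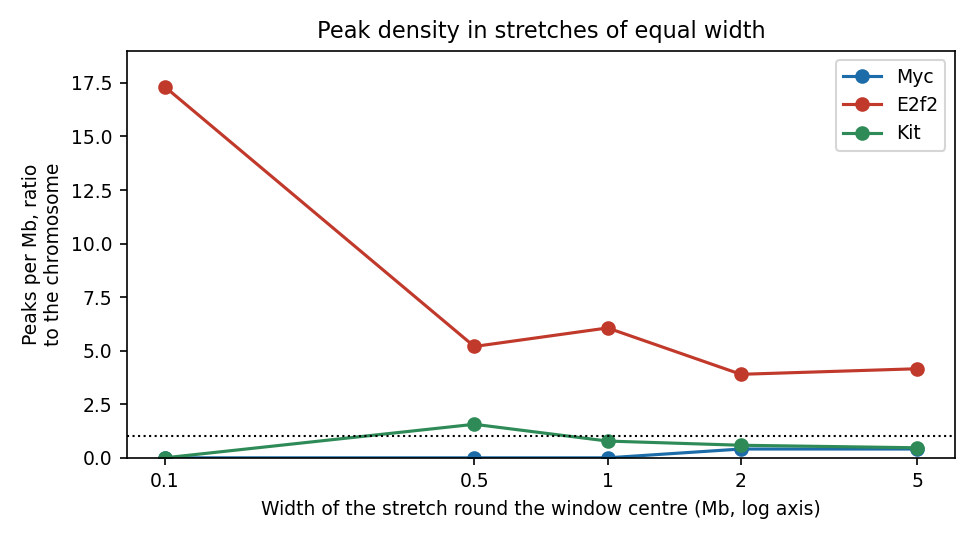
Peaks per Mb as a ratio to the whole chromosome (vertical axis) in stretches of 0.1 to 5 Mb centred on each window (horizontal axis, log axis). The dotted line marks the density of the chromosome. E2f2 lies above it at each width, from 17.3 at 0.1 Mb to 4.16 at 5 Mb, while Myc lies below it at each width round the centre of its long window and Kit is above it only at 0.5 Mb.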

How the data were processed

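Tle3 ChIP-seq of 1 Tle3 library and 1 control library was used as 1 list of peaks. Bowtie2 and MACS 1.4 with build mm9 are named per the submitters' processing notes. For the parameters, read filters and duplicates, the sources used here give nothing. The score of each peak is as deposited by the authors. It rises with depth, and depth is unknown.

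BED starts were raised by 1, so that positions count from 1. Peaks were assigned to windows by midpoint, and gaps measured edge to edge. Chromosome density was taken from first to last peak. Tiles were laid from each window in both directions. The members and lists were chosen with earlier results of these data known. The named genes are the 3 members and their coding neighbours in the GRCm38.p6 table, used for order only, and Pvt1. All 7 peaks are named by position. Peaks at other proliferation genes were not analysed here, for lack of an mm9 annotation. Counting of chains and windows was tested on simulated lists. Alternatives covered score, merging, chain distance and window rules. Python 3.11.15, numpy 2.4.6, pandas 2.3.3 and SciPy 1.17.1 were used.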

Additional observations from a re-analysis of the deposited data

How the results depend on the processing

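Of 59 alternative values for 15 results, 46 lay within the bounds set for them: 1.5 times for counts and densities, the counting interval for ratios and the spread between peaks of the window for medians. The intervals and spreads are wide, so values within them could still move by over 1.5 times. A minimum score of 100 lowered the peaks per Mb to 0.476 at Myc and 25 at E2f2, and the E2f2 peaks in a chain to 2, while it raised the ratio to the chromosome to 51.4 at E2f2, 5.58 at Kit and 0.733 at Myc. A minimum of 110, added after the data were seen, left 0 peaks per Mb and a ratio to the chromosome of 0 at Myc and Kit, which turned the Kit ratio from above 1 to below it. It gave 25 peaks per Mb at E2f2 and a ratio of 64.4. Merging within 2 kb, also added later, left 12.5 peaks per Mb at E2f2, a ratio of 5.72 and 0 peaks in a chain. Widening the windows by 25% of their width on each side, added later, raised the peaks per Mb to 1.59 and the ratio to 0.653 at Myc. At Kit this widening raised them to 4.04 and 1.58, and at E2f2 it lowered them to 33.3 and 14.4. Against the median tile the Myc ratio was 1. Without its highest peak, the E2f2 window had a median score of 56.7, against 113. The median tile held 0 peaks at the widths of the E2f2 and Kit windows, so it gave no ratio there, and the Kit medians had no value without its 1 peak. No paired analysis was possible because each antibody had 1 library only.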
